A study of Homo sapiens with 4 samples.

Results

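The genes described here encode the heterogeneous nuclear ribonucleoproteins (hnRNPs) and the serine- and arginine-rich (SR) proteins, the main families of RNA-binding proteins that set splice-site choice. They were taken by name: every row of the gene table that is annotated as protein-coding and whose symbol begins with HNRNP, or with SRSF and a number. This gave 37 of 58219 genes, 25 of them hnRNP genes and 12 SR genes. The study used WI-38, a single line of normal human fibroblasts of embryonic lung, whose cells leave the cell cycle for good after irradiation. All samples were irradiated with 10 Gy and harvested after 8 days. They carried either siG3BP1, an siRNA against the RNA-binding protein G3BP1 of stress granules, or siCTL, a scrambled siRNA. Total RNA of 2 libraries per group, named A and B, was sequenced, so the question is how the RNA of these splicing factors differed between senescent cells with and without G3BP1.

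SR proteins bind enhancer motifs in exons through RNA recognition motifs and recruit the spliceosome through a tail of alternating arginine and serine, whose phosphorylation by dedicated kinases governs their entry into the nucleus and their release from nuclear speckles. hnRNPs coat nascent transcripts, often silence the exons they bind, and many shuttle to the cytoplasm, where members such as HNRNPD act on the decay and translation of messenger RNAs of cytokines. Many genes of both families restrain themselves by splicing in an exon or an intron with a stop codon, which sends the transcript to nonsense-mediated decay. Lower levels of several of these factors are a known trait of senescent human fibroblasts.

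Each value is a normalized read count, that is the reads assigned to a gene divided by a size factor of its library. The reads in genes numbered 16944404 and 22745000 under siCTL (A and B) and 17169469 and 19233994 under siG3BP1 (A and B). G3BP1 itself stood at 2675 and 2522 normalized reads under siCTL and at 201 and 271 under siG3BP1, with a log2 fold change of -3.47 ± 0.34 (SE) and an adjusted p = 9.10e-21 (limma, Benjamini-Hochberg). All 12 fibroblast markers looked up passed the filter on low values, and their summed level was 507755 to 692080 normalized reads in the siCTL libraries and 714047 to 730599 in the siG3BP1 libraries. That sum rests on FN1, VIM and collagen genes. LUM, PDGFRA, DCN and COL3A1 fell, with log2 fold changes of -2.86, -1.65, -1.06 and -0.85, VIM and S100A4 rose, and the other 6 did not pass (limma, Benjamini-Hochberg). EPCAM, CDH1, KRT5, CDH5, PTPRC and CD3E, from the lists of epithelial, endothelial and immune markers, stood between 0 and 3.06 in every library. Other markers of these lists were expressed. KRT8 ranged from 295 to 725 normalized reads over the libraries, KRT18 from 629 to 1401 and CD14 from 23.1 to 54.3. KRT8, KRT19, VWF and LYZ were higher after siG3BP1, and KRT18 and CD14 did not pass the test. The summed epithelial list was at 960.3 to 1125 normalized reads in the siCTL and 1383 to 2258 in the siG3BP1 libraries, the endothelial list at 28.7 to 39.8 and 40.1 to 78.1, and the immune list at 72.9 to 81.4 and 100.1 to 107. The part of other cell types in the results was not tested. Nothing in the labels shows A and B to be separate cultures, so p-values measure only the spread between these libraries, which may be technical. Limma pools that spread over genes of similar level. An SE or p from limma thus reflects mostly that shared spread and little of the gene's own. Over the members the SE ran from 0.33 to 0.62, the latter in HNRNPA1L2, a gene of few reads. In bulk RNA, fewer cells that express a gene and less of its RNA per cell cannot be told apart.

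Several of these genes come in pairs that encode related proteins, and 3 such pairs, whose members stood apart after G3BP1 depletion, are shown first because the results return to them. The pairs were chosen with their values known. The stretches were picked within an exon where the members share the most residues, so they are more alike than the whole proteins. Each stretch is 60 bases of the coding strand, 5′ to 3′, taken from the canonical transcript of Gencode 44 on GRCh38, and the capitals mark the bases at which the members of a pair differ. SRSF1 and SRSF9 share 73.5% of their aligned residues. The stretches shown encode the same 20 residues and differ at 14 bases, 11 of them at the last position of a codon. Of the 60 bases, 29 are G or C in the SRSF1 stretch (chr17:58005912-58005971, minus strand, exon 3, codons 128 to 147) and 36 in the SRSF9 stretch (chr12:120464061-120464120, minus strand, exon 3, codons 118 to 137).
SRSF1: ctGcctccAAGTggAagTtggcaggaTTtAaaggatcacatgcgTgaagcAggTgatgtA
SRSF9: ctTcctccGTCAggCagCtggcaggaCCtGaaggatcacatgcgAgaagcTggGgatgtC

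HNRNPLL and HNRNPL share 57.9% of their aligned residues. The stretches shown encode 18 identical residues of 20 and differ at 13 bases, 11 of them at the last position of a codon. G and C make up 23 bases of the HNRNPLL stretch (chr2:38582081-38582140, minus strand, exon 5, codons 221 to 240) and 30 of the HNRNPL stretch (chr19:38844017-38844076, minus strand, exon 5, codons 247 to 266).
HNRNPLL: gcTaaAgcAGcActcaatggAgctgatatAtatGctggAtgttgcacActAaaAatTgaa
HNRNPL: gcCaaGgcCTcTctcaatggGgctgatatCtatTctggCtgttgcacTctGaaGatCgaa

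HNRNPH1 and HNRNPF share 77.8% of their aligned residues, and the stretches shown encode the same 20 residues with 11 bases exchanged, each at the last position of a codon. G and C make up 26 bases of the HNRNPH1 stretch (chr5:179617590-179617649, minus strand, exon 9, codons 308 to 327) and 29 of the HNRNPF stretch (chr10:43386904-43386963, minus strand, exon 4, codons 308 to 327). Over the whole coding sequence the GC content was 55.4% in SRSF1 and 56.9% in SRSF9, 44.03% in HNRNPLL and 58.0% in HNRNPL, and 47.0% in HNRNPH1 and 54.5% in HNRNPF.
HNRNPH1: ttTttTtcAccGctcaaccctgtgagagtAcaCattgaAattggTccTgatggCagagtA
HNRNPF: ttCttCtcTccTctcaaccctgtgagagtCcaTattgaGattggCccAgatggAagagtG

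More of these genes were lower than higher after G3BP1 depletion. Of the 32 members that passed a filter of a mean of at least 10 normalized reads, 15 fell (46.9%), 1 rose and 16 did not pass the test. Among all 13422 genes tested, 30.5% were called lower and 25.9% higher by the same rule, an adjusted p below 0.05 from limma on log2(value + 0.5), a scale that understates the change of low genes. The hnRNP genes counted 11 lower, 1 higher and 9 not called of 21, and the SR genes 4 lower, 0 higher and 7 not called of 11. At an unadjusted p below 0.05 in limma 1 SR gene, SRSF9, was higher, and DESeq2 called 1 and edgeR 0 SR genes higher. The median log2 fold change was -0.81 over the hnRNP genes, -0.39 over the SR genes and 0.04 over all genes tested. Both siG3BP1 libraries lay below both siCTL libraries in 21 members and above them in 4, against 40.5% and 42.8% of all genes tested, and in 7 members the groups overlapped. With either siCTL library left out, most calls were lost in the whole table, those of the members included. The median log2 fold change of the members was then -0.67 without siCTL A and -0.62 without siCTL B, against -0.62 with all 4 libraries. After a correction for exonic GC content 0 members passed limma, beside 0.00749% lower and 0% higher of all genes. In that fit 14 of 32 members had an unadjusted p below 0.05, beside 3808 of 13350 genes. When the model also held the library letters A and B, 6 members were called lower and 7 higher. The shares of all genes were then 14.5% lower and 14.9% higher.

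**Figure D1:**
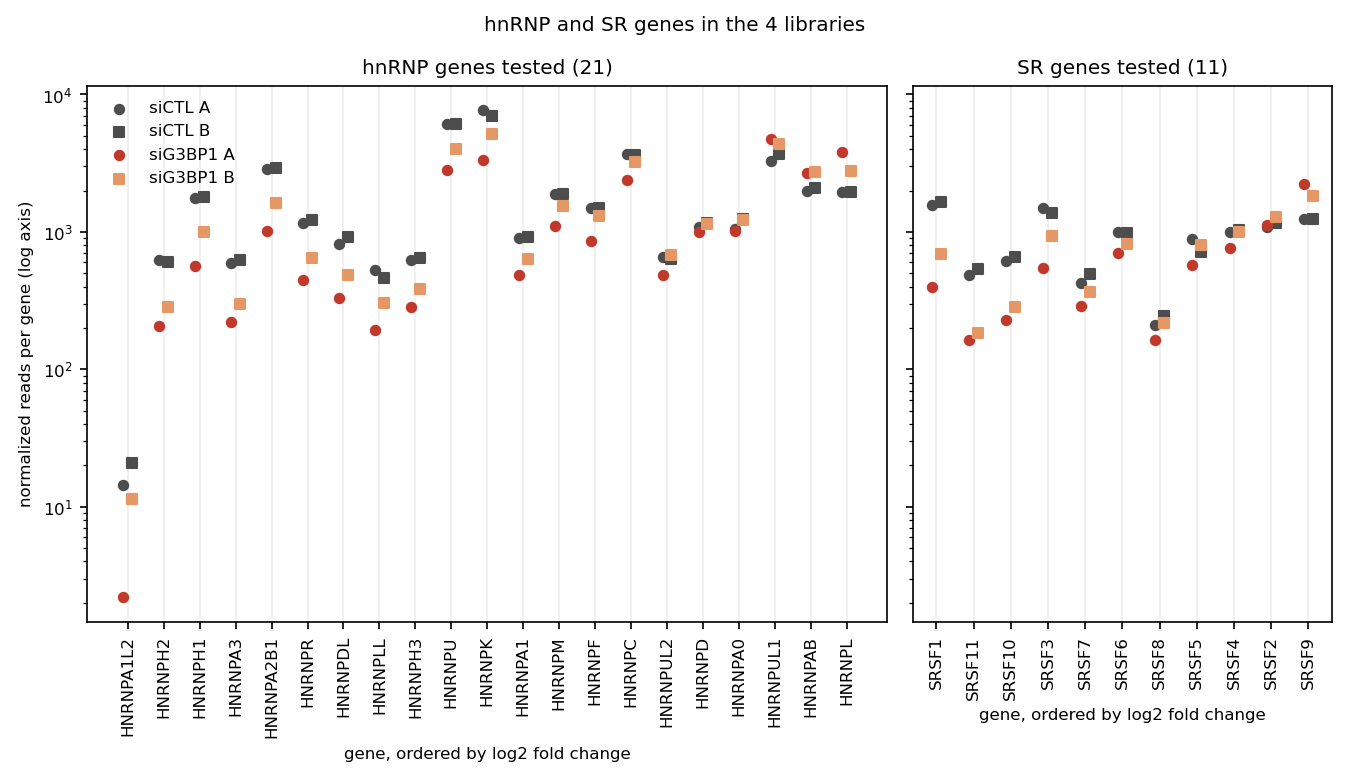
Normalized reads (log axis) of the 32 tested members in each of the 4 libraries, siCTL A and B and siG3BP1 A and B, with hnRNP genes and SR genes in separate panels. In 21 members both siG3BP1 points lie below both siCTL points, and in 4 (HNRNPL, HNRNPAB, HNRNPUL1 and SRSF9) they lie above.

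The other 5 members were all but silent. HNRNPCL2, HNRNPCL3 and HNRNPCL4, copies of HNRNPC that lie close together on chromosome 1, were at 0 in every library, and HNRNPCL1 had 0.798 normalized reads in siCTL A and none elsewhere. SRSF12, an SR-like splicing repressor, was at 0.798 and 2.45 in the siCTL libraries and at 0 and 0.819 in the siG3BP1 libraries. A count of 0 allows up to 3 reads, which is 1.84 to 3.30 normalized reads depending on the library, for counting error only. The sum of the 37 members was 50766 and 51068 normalized reads under siCTL and 35164 and 42218 under siG3BP1 (A and B). Over all genes tested the sum was 13504062 and 13913504 under siCTL and 18853592 and 15735361 under siG3BP1 (A and B). The library totals were thus not level on this scale. Per kilobase of canonical transcript, HNRNPK had the highest level in the siCTL libraries, with a mean of 2534 normalized reads per kilobase, followed by HNRNPC with 1154, HNRNPAB with 1148 and SRSF9 with 1078, and among tested members HNRNPA1L2 was lowest with 13.1.

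The A/B-type hnRNPs, which bind UAG-rich silencers and package much of the nuclear pre-mRNA, were led by HNRNPA2B1, a reader of sorting signals and modified bases in RNA. HNRNPA2B1 (ENSG00000122566.20, chr7:26189927-26201529, minus strand of GRCh38) was at 2888 and 2940.4 normalized reads under siCTL (libraries A and B) and 1014 and 1609.9 under siG3BP1 (A and B). Both siG3BP1 libraries were below both siCTL libraries, with siG3BP1 A the lower. It fell, with a log2 fold change of -1.19 ± 0.33 (SE) and an adjusted p = 0.00194 (limma, Benjamini-Hochberg). HNRNPA3, its relative with a similar domain plan, was at 589.9 and 621 normalized reads under siCTL (libraries A and B) and 221 and 297 under siG3BP1 (A and B). Again the groups did not overlap. HNRNPA3 fell with a log2 fold change of -1.24 ± 0.34 (SE) and an adjusted p = 0.00144 (limma, Benjamini-Hochberg), though 53.6% of its annotated exonic bases lie opposite to exons of NFE2L2. HNRNPA1, the most studied exon silencer of the family, was at 899 and 922 normalized reads under siCTL (libraries A and B) and 484 and 638 under siG3BP1 (A and B). The groups did not overlap, but the difference missed the threshold, with a log2 fold change of -0.71 ± 0.34 (SE) and an adjusted p = 0.0591 (limma, Benjamini-Hochberg). HNRNPA1 passed in edgeR (adjusted p = 0.0408) and DESeq2 (adjusted p = 0.0372) on the recovered reads. Rows named as HNRNPA1 pseudogenes, 75 in number, together held 3.92% to 6.38% of the reads of HNRNPA1 and these pseudogenes, so some reads may have been split between near-identical copies.

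HNRNPA1L2, an intronless copy of HNRNPA1, was at 14.4 and 20.8 normalized reads under siCTL (libraries A and B) and 2.20 and 11.5 under siG3BP1 (A and B). It fell with a log2 fold change of -1.65 ± 0.62 (SE) and an adjusted p = 0.0174 (limma, Benjamini-Hochberg), but on few reads, and without siG3BP1 A its log2 fold change was -0.57 (adjusted p = 0.353, limma). All of its exonic bases are shared on the same strand with a second annotated gene. HNRNPA0, which binds AU-rich elements, overlapped between the groups at 1043 and 1246 normalized reads under siCTL and 1014 and 1222 under siG3BP1. HNRNPAB, also a binder of AU-rich elements, was higher in both siG3BP1 libraries, at 1975 and 2088 normalized reads under siCTL and 2674 and 2743 under siG3BP1, without passing the test (log2 fold change 0.42). HNRNPD, also called AUF1, which targets AU-rich messenger RNAs for decay, overlapped at 1081 and 1157 normalized reads under siCTL and 991 and 1150.3 under siG3BP1. None of these 3 genes passed the test. Its neighbor on chromosome 4, HNRNPDL, which encodes a closely related protein, was at 821 and 914 normalized reads under siCTL and 329 and 484 under siG3BP1. HNRNPDL fell with no overlap, with a log2 fold change of -1.12 ± 0.34 (SE) and an adjusted p = 0.00362 (limma, Benjamini-Hochberg).

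The F/H group binds runs of G and controls both splicing and polyadenylation, and 3 of its 4 genes fell. All 3 lie below the median GC content, where 58.6% of all genes were called lower. HNRNPH2 (ENSG00000126945.8, chrX:101408295-101414133, plus strand of GRCh38) was at 628 and 603 normalized reads under siCTL (libraries A and B) and 206 and 283 under siG3BP1 (A and B). Its level in the siG3BP1 libraries was 39.7% of that in siCTL, with a log2 fold change of -1.35 ± 0.34 (SE) and an adjusted p = 5.75e-04 (limma, Benjamini-Hochberg), the smallest p among the hnRNP genes. HNRNPH1, whose protein shares 96.2% of its residues with that of HNRNPH2, was at 1759 and 1809 normalized reads under siCTL (libraries A and B) and 566 and 1001 under siG3BP1 (A and B). Both siG3BP1 libraries were again the lower ones, with a log2 fold change of -1.24 ± 0.34 (SE) and an adjusted p = 0.00131 (limma, Benjamini-Hochberg). The HNRNPH2 exons share 15.8% of their bases with the readthrough gene RPL36A-HNRNPH2. HNRNPH3, a shorter member, fell by 0.95 on the log2 scale (adjusted p = 0.0126, limma), from 628 and 649.6 to 284 and 386 normalized reads. HNRNPF, the most GC-rich of the group by exonic bases, was at 1492 and 1485 normalized reads under siCTL and 865 and 1303 under siG3BP1, lower in both libraries but short of the threshold (log2 fold change -0.49, adjusted p = 0.201, limma).

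HNRNPK and HNRNPU were the most abundant members by reads. HNRNPK, which binds runs of C and also acts in transcription and in the p53 response, was at 7664 and 6978 normalized reads under siCTL (libraries A and B) and 3358 and 5197 under siG3BP1 (A and B). It fell with a log2 fold change of -0.81 ± 0.33 (SE) and an adjusted p = 0.0296 (limma, Benjamini-Hochberg), and missed the threshold without the filter on low values (adjusted p = 0.0758, limma). HNRNPU, also called scaffold attachment factor A, links RNA to chromatin and was at 6072 and 6112 normalized reads under siCTL (libraries A and B) and 2821 and 3997 under siG3BP1 (A and B). It fell with a log2 fold change of -0.86 ± 0.33 (SE) and an adjusted p = 0.0209 (limma, Benjamini-Hochberg). For both genes siG3BP1 A was the lowest library and siG3BP1 B lay between it and the siCTL libraries. The HNRNPU relatives did not pass the test: HNRNPUL1, a factor of DNA repair as well, was higher in both siG3BP1 libraries at 3266 and 3674 normalized reads under siCTL and 4749.8 and 4344 under siG3BP1, and HNRNPUL2 overlapped at 659 and 637 normalized reads under siCTL and 489 and 679 under siG3BP1. HNRNPUL2 shares 44.3% of its exonic bases with the readthrough gene HNRNPUL2-BSCL2 on the same strand.

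HNRNPR, a relative of SYNCRIP that binds messenger RNA in nucleus and cytoplasm, was at 1161 and 1221 normalized reads under siCTL (libraries A and B) and 445 and 641 under siG3BP1 (A and B). The siG3BP1 libraries lay below both siCTL libraries, with a log2 fold change of -1.16 ± 0.34 (SE) and an adjusted p = 0.00269 (limma, Benjamini-Hochberg). HNRNPM, a regulator of alternative exons, was lower in both siG3BP1 libraries at 1898 and 1886 normalized reads under siCTL and 1098 and 1547 under siG3BP1, without passing (log2 fold change -0.54, adjusted p = 0.155, limma). HNRNPC, which binds tracts of U and keeps Alu-derived exons out of messenger RNA, was at 3710.4 and 3597 normalized reads under siCTL (libraries A and B) and 2377 and 3209 under siG3BP1 (A and B). Its groups did not overlap, but siG3BP1 B came close to siCTL, and the difference did not pass, with a log2 fold change of -0.40 ± 0.33 (SE) and an adjusted p = 0.289 (limma, Benjamini-Hochberg). HNRNPL, which binds CA repeats, was the single member that rose. HNRNPL (ENSG00000104824.16, chr19:38836388-38852347, minus strand of GRCh38) was at 1945 and 1946 normalized reads under siCTL (libraries A and B) and 3799.9 and 2764 under siG3BP1 (A and B). Both siG3BP1 libraries were above both siCTL libraries, with a log2 fold change of 0.74 ± 0.33 (SE) and an adjusted p = 0.0489 (limma, Benjamini-Hochberg), just past the threshold, and it missed the threshold in edgeR (adjusted p = 0.0807). Its relative HNRNPLL, known for setting CD45 isoforms in lymphocytes, went the other way, at 531 and 465 normalized reads under siCTL and 194 and 305 under siG3BP1. HNRNPLL fell by 1.03 on the log2 scale (adjusted p = 0.00708, limma with Benjamini-Hochberg adjustment).

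SRSF1 had the smallest p of all members. The gene, SRSF1 (ENSG00000136450.12, chr17:58003360-58007346, minus strand of GRCh38), encodes the founding SR protein, an exon activator and an oncoprotein when in excess, and was at 1575 and 1650.4 normalized reads under siCTL (libraries A and B) and 399 and 691 under siG3BP1 (A and B). Both siG3BP1 libraries were far below both siCTL libraries, and the level was 33.8% of that in siCTL. SRSF1 fell with a log2 fold change of -1.62 ± 0.34 (SE) and an adjusted p = 4.51e-05 (limma, Benjamini-Hochberg), and 32.7% of its exonic bases are shared with a second annotated gene on the same strand. SRSF11, a less canonical family member found in speckles, was at 488 and 537 normalized reads under siCTL (libraries A and B) and 164 and 185 under siG3BP1 (A and B), a log2 fold change of -1.55 ± 0.34 (SE) and an adjusted p = 9.55e-05 (limma, Benjamini-Hochberg). SRSF10, which turns from a splicing activator into a repressor when dephosphorylated, was at 614 and 653 normalized reads under siCTL (libraries A and B) and 229.8 and 283 under siG3BP1 (A and B), a log2 fold change of -1.31 ± 0.34 (SE) and an adjusted p = 8.02e-04 (limma, Benjamini-Hochberg). In both genes the siG3BP1 libraries lay close together and below the siCTL libraries.

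SRSF3 and SRSF7 are small SR proteins that also serve as adaptors for export of messenger RNA, and SRSF3 alone of them passed the test. SRSF3 was at 1505 and 1378 normalized reads under siCTL (libraries A and B) and 544 and 938 under siG3BP1 (A and B). It fell with no overlap between the groups, with a log2 fold change of -1.01 ± 0.34 (SE) and an adjusted p = 0.00783 (limma, Benjamini-Hochberg). SRSF7 was at 427 and 497 normalized reads under siCTL (libraries A and B) and 290.3 and 366 under siG3BP1 (A and B). Its siG3BP1 libraries were also the lower ones, but the difference did not pass, with a log2 fold change of -0.50 ± 0.34 (SE) and an adjusted p = 0.193 (limma, Benjamini-Hochberg). SRSF2, also called SC35, a marker of nuclear speckles that stays in the nucleus, was at 1087 and 1169 normalized reads under siCTL (libraries A and B) and 1123 and 1281 under siG3BP1 (A and B). The groups overlapped, with a log2 fold change of 0.089 ± 0.34 (SE) and an adjusted p = 0.829 (limma, Benjamini-Hochberg). SRSF9, the closest relative of SRSF1, was at 1235 and 1249.6 normalized reads under siCTL (libraries A and B) and 2225 and 1821 under siG3BP1 (A and B). Both siG3BP1 libraries were above both siCTL libraries, with siG3BP1 A the higher, and the difference missed the threshold, with a log2 fold change of 0.70 ± 0.34 (SE) and an adjusted p = 0.0633 (limma, Benjamini-Hochberg). In DESeq2 it passed (adjusted p = 0.0356), and 43.6% of the SRSF9 exonic bases lie opposite to exons of GATC.

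SRSF4, SRSF5 and SRSF6, which like SRSF1 carry a second RNA recognition motif, showed no change that passed, with log2 fold changes of -0.21, -0.23 and -0.39. SRSF6 was lower in both siG3BP1 libraries at 1004 and 981 normalized reads under siCTL and 703 and 821 under siG3BP1. SRSF4 overlapped, at 1003 and 1024 normalized reads under siCTL and 769 and 1004 under siG3BP1, and so did SRSF5, at 891 and 709 normalized reads under siCTL and 574 and 796 under siG3BP1. SRSF8, a copy related to SRSF2, was at 209.9 and 246 normalized reads under siCTL and 163 and 218 under siG3BP1, with overlap and a log2 fold change of -0.27. Given standard errors near 0.34 on the log2 scale, a difference of the size seen in these 4 genes could not be told from none.

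**Figure D2:**
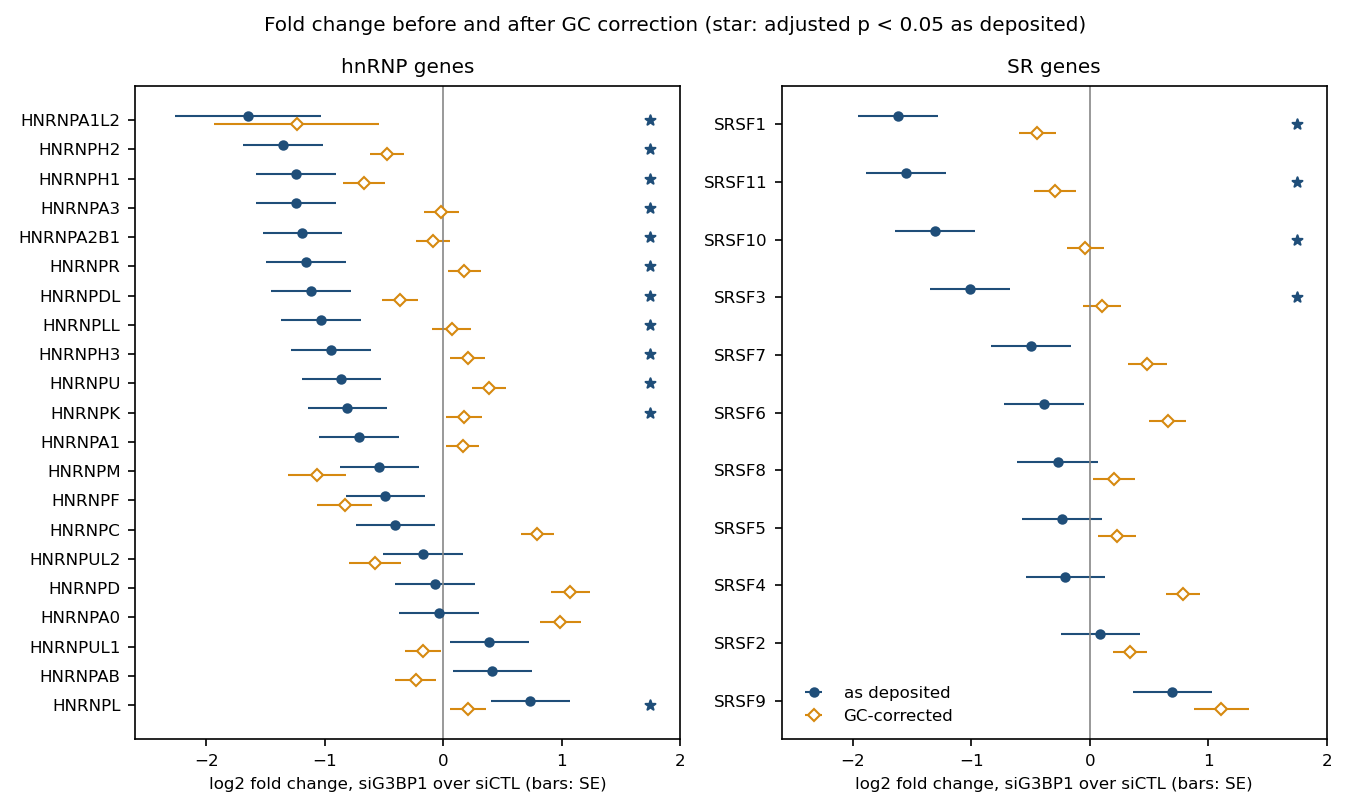
Log2 fold change of siG3BP1 over siCTL for each tested member (bars of 1 standard error from limma, 2 libraries per group), as deposited (circles) and after the correction of each library for exonic GC content (diamonds). Before correction 27 of 32 values are below 0, and after it 14 are.

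The fold change of these genes moved with the GC content of their exons. The annotated exons of the members had a median GC content of 41.4%, against 47.9% over all genes tested. Spearman's rho between fold change and exonic GC content was 0.88 across the 11 SR genes, 0.40 across the 21 hnRNP genes and 0.80 across all genes tested, as a description of points that share the same 4 libraries. Below the median GC content of all genes, 15 of 26 members fell (57.7%), beside 58.6% of all genes on that side. By family these were 11 of 15 hnRNP genes (73.3%) and 4 of 11 SR genes (36.4%). At or above it, 0 of 6 members fell and HNRNPL rose, beside 2.52% lower and 49.0% higher among all genes on that side. All 11 SR genes lay below that median, with SRSF10 and SRSF11 at 37.0% and 37.2% and SRSF9 and SRSF2 at 45.5% and 46.5%.

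**Figure D3:**
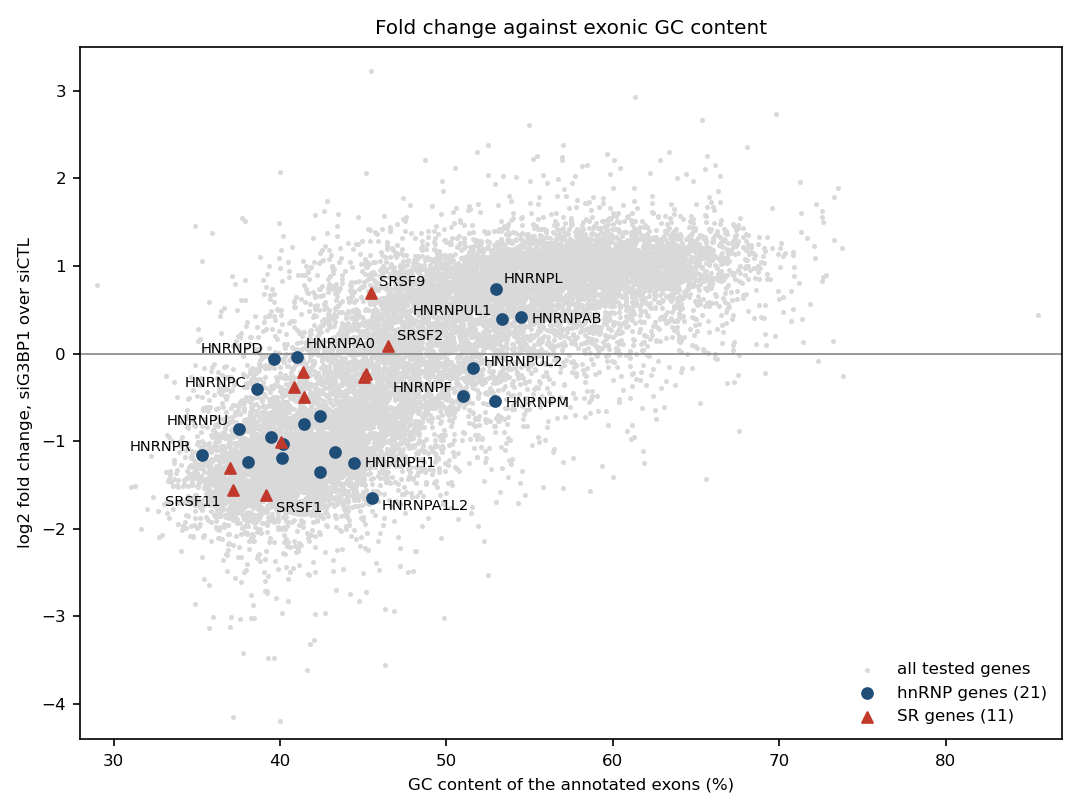
Log2 fold change (siG3BP1 over siCTL) against the GC content of a gene's annotated exons in percent, for all tested genes (gray) and for hnRNP (circles) and SR (triangles) genes. Most members lie at low GC content and below 0, within the cloud of all genes, while HNRNPL, HNRNPAB and HNRNPUL1 at over 50% lie above 0 and HNRNPM, HNRNPF and HNRNPUL2 below it.

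Correcting every library for the relation of its values to GC content left a median log2 fold change of -0.02 over the hnRNP genes and 0.23 over the SR genes, against 0.02 over all genes. No member passed limma then in the fit without a block, where 14 of 32 had an unadjusted p below 0.05, beside 3808 of 13350 genes. Of these 13350 genes 0.00749% were called lower and 0% higher. The smallest adjusted p of a member was 0.0663. SRSF1 had a corrected log2 fold change of -0.44 and SRSF11 one of -0.29, and for SRSF10 and HNRNPA3 it was -0.04 and -0.016. HNRNPH1 and HNRNPH2 stood at -0.67 and -0.48. HNRNPM, among the most GC-rich members, had log2 levels after correction of 11.17 and 11.13 under siCTL (A and B) and 9.72 and 10.44 under siG3BP1 (A and B). Its siG3BP1 libraries lay below its siCTL libraries, with a corrected log2 fold change of -1.07 (adjusted p = 0.0747, limma). HNRNPD, with an exonic GC content of 39.6%, stood at 9.51 and 9.60 under siCTL (A and B) and 10.78 and 10.48 under siG3BP1 (A and B) on the same scale. Here both siG3BP1 libraries were the higher ones, with a corrected log2 fold change of 1.07 (adjusted p = 0.0663, limma). HNRNPA0 (0.99) and HNRNPC (0.80) were likewise above 0 after correction, and HNRNPA1 (0.16), HNRNPK (0.18), HNRNPU (0.39), SRSF2 (0.34), SRSF3 (0.10) and SRSF7 (0.49) were above 0 too.

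For a few genes the corrected value depends on which exons are counted. With the GC content of the canonical transcript in place of that of all annotated exons, a choice made after seeing the data, SRSF4 went from 0.79 to -0.53, SRSF9 from 1.11 to 0.30 and HNRNPF from -0.83 to -0.10. HNRNPM (-1.03), HNRNPD (0.85), HNRNPA0 (1.01) and HNRNPC (0.72) kept their direction. The origin of the trend with GC content was not tested.

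The siG3BP1 libraries also differed from each other in these genes. In 29 of the 32 members siG3BP1 A was below siG3BP1 B (90.6%), against 53.8% of all genes tested. Among the lists of other splicing genes described below, the share was 80.0% for kinases and import receptors and 76.0% for SR-related genes. It was 63.4% for other splicing regulators and 44.1% for the core of the spliceosome. The members had a lower median exonic GC content than all genes (41.4% against 47.9%), and no share at like GC content was computed. After GC correction siG3BP1 A was above siG3BP1 B in some members, such as SRSF10 (8.74 and 8.53 on the log2 scale). In others it was below, such as HNRNPH1 (9.64 and 10.05). The part of GC content in this difference was not tested. The median difference B minus A over the members was 0.44 on the log2 scale in siG3BP1 and 0.04 in siCTL. HNRNPH1, for example, was at 566 and 1001 in these 2 libraries, and SRSF1 at 399 and 691, while the siCTL libraries of both genes were nearly level. Without siG3BP1 A, 15 members were called lower and 2 higher, with a median of -0.41, beside 23.9% and 18.8% of all genes (limma). Without siG3BP1 B the counts were 22 and 4, with a median of -0.85, beside 37.6% and 34.1% of all genes. Without siCTL A or without siCTL B no member passed (smallest adjusted p = 0.150 and 0.211, limma), with medians of -0.67 and -0.62, and few genes passed overall (0.797% lower and 0.149% higher, and 0.0894% and 0.0373%). edgeR on the recovered reads called 16 members lower and 0 higher, beside 32.0% and 23.4% of all genes, and DESeq2 called 15 and 2, beside 26.6% and 23.9%.

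The ratios within the pairs whose sequences were printed differed between the groups. The ratio of SRSF1 to SRSF9 normalized reads was 1.28 and 1.32 in siCTL (A and B) and 0.179 and 0.379 in siG3BP1 (A and B). The ratio of HNRNPLL to HNRNPL was 0.273 and 0.239 in siCTL and 0.0509 and 0.110 in siG3BP1. HNRNPH1 to HNRNPF stood at 1.18 and 1.218 in siCTL and 0.654 and 0.769 in siG3BP1. In all 3 pairs the groups did not overlap and siG3BP1 A held the lowest ratio. These pairs were chosen for their difference, so no test is given, and with 2 libraries against 2 the smallest two-sided exact permutation p is 0.333 in any case. The members also differ in exonic GC content, with 39.1% for SRSF1 and 45.5% for SRSF9, 40.2% for HNRNPLL and 53.0% for HNRNPL, and 44.5% for HNRNPH1 and 51.0% for HNRNPF. After GC correction the log2 fold changes were -0.44 for SRSF1 and 1.11 for SRSF9, 0.071 for HNRNPLL and 0.21 for HNRNPL, and -0.67 for HNRNPH1 and -0.83 for HNRNPF. With the GC content of canonical transcripts they were -0.41 and 0.30, 0.19 and 0.15, and -0.43 and -0.10, so the order within the last 2 pairs turned.

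HNRNPDL and HNRNPD differ in the other sense, since the exons of HNRNPDL are the more GC-rich (43.3% against 39.6%). Their ratio was 0.760 and 0.790 in siCTL and 0.332 and 0.421 in siG3BP1, again without overlap. After GC correction HNRNPDL stood at -0.36 and HNRNPD at 1.07 on the log2 scale, and on canonical transcripts at -0.73 and 0.85. The ratio of SRSF3 to SRSF7 was 3.52 and 2.77 in siCTL and 1.87 and 2.56 in siG3BP1, so that siG3BP1 B came close to siCTL B. HNRNPH2 to HNRNPH1, the most alike pair, overlapped, at 0.357 and 0.333 in siCTL and 0.363 and 0.283 in siG3BP1.

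**Figure D4:**
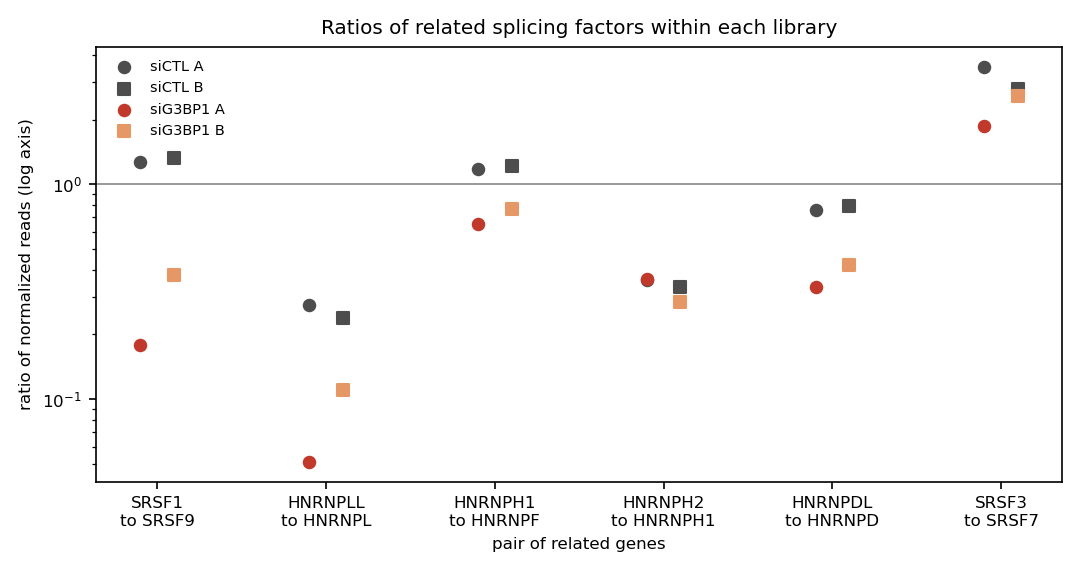
Ratio of normalized reads (log axis) of 6 pairs of related members in each of the 4 libraries. The ratios SRSF1 to SRSF9, HNRNPLL to HNRNPL, HNRNPH1 to HNRNPF, HNRNPDL to HNRNPD and SRSF3 to SRSF7 lie lower in siG3BP1 A and B than in siCTL A and B, and HNRNPH2 to HNRNPH1 overlaps.

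The table of genes lists transcript classes, which describe the annotation and not the reads. A transcript class of nonsense-mediated decay is listed for 11 of 11 tested SR genes, for 12 of 21 hnRNP genes and for 41.4% of protein-coding genes tested. The hnRNP genes with and without one had medians of -0.76 and -0.95 on the log2 scale. A retained intron is listed for 8 of the SR and 14 of the hnRNP genes, against 57.6% of protein-coding genes tested. The counts are per gene and do not separate productive isoforms from those that end in decay. Of 128 further rows with HNRNP or SRSF in their symbol, mostly pseudogenes, 2 reached a mean of 10 normalized reads, and together these rows held 0.194% to 0.253% of the reads of all such rows and the members.

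The partners of these proteins were looked at as lists written from textbook knowledge. Of 25 SR-related genes, which carry arginine and serine repeats without being SR proteins, 15 fell and 3 rose, with a median log2 fold change of -0.89. The lower ones are 60.0% of the list, beside 30.5% lower and 25.9% higher among all genes tested and 58.6% lower among all genes under the median GC content. SCAF11, which binds splicing factors and was first known as an SR-interacting protein, was at 916 and 1005 normalized reads under siCTL and 202 and 311 under siG3BP1 and had a log2 fold change of -1.93 ± 0.34 (SE) and an adjusted p = 1.70e-06 (limma, Benjamini-Hochberg). PPIG, a prolyl isomerase with an RS domain, and SREK1, a regulatory SR-like protein, had log2 fold changes of -1.81 and -1.68. Of 10 tested genes for the kinases that phosphorylate SR proteins and their import receptors, 7 fell and 1 rose (70.0% and 10.0%, to be read against the same shares of all genes), with a median of -1.31. TNPO1, the import receptor of HNRNPA1 and other hnRNPs, was at 3857 and 3814 normalized reads under siCTL and 895 and 1510.0 under siG3BP1 and had a log2 fold change of -1.72 ± 0.33 (SE) and an adjusted p = 1.62e-05 (limma, Benjamini-Hochberg). The kinases PRPF4B and DYRK1A fell by 1.59 and 1.39 on the log2 scale (adjusted p = 6.86e-05 and 3.97e-04, limma). After GC correction no gene of either list passed limma, beside 0.00749% lower and 0% higher of all genes, and the medians were 0.04 and -0.36. In that fit 6 of 25 and 5 of 10 genes had an unadjusted p below 0.05, beside 3808 of 13350 genes tested.

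Of 41 tested genes among 45 other splicing regulators, 19 fell and 5 rose (46.3% and 12.2%, beside 30.5% and 25.9% of all genes tested), with a median of -0.67. TIA1, a U-rich element binder that is itself a stress granule protein, was at 347 and 370.1 normalized reads under siCTL and 63.8 and 130.3 under siG3BP1 and had a log2 fold change of -1.97 ± 0.34 (SE) and an adjusted p = 1.74e-06 (limma, Benjamini-Hochberg). RBMXL1, a copy of RBMX, and SYNCRIP, the relative of HNRNPR, had log2 fold changes of -1.84 and -1.45. Of 59 tested genes of the core of the spliceosome 15 fell and 22 rose (25.4% and 37.3%, beside the same shares of all genes), with a median of 0.53. CDC40, a late-acting splicing factor, and SF3B1, the branch-site factor, were among those with the smallest p and had log2 fold changes of -1.80 and -1.63, on the side of the minority of called core genes. The median exonic GC content was 40.8% for the SR-related list, 41.7% for the kinases and import receptors, 43.7% for the other regulators and 47.3% for the core list. After GC correction no gene of the regulators or the core list passed limma, beside 0.00749% lower and 0% higher of all genes. The medians were -0.02 and 0.17. In that fit 14 of 41 and 20 of 59 genes had an unadjusted p below 0.05, beside 3808 of 13350 genes tested. The difference between the lists was not tested.

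**Figure D5:**
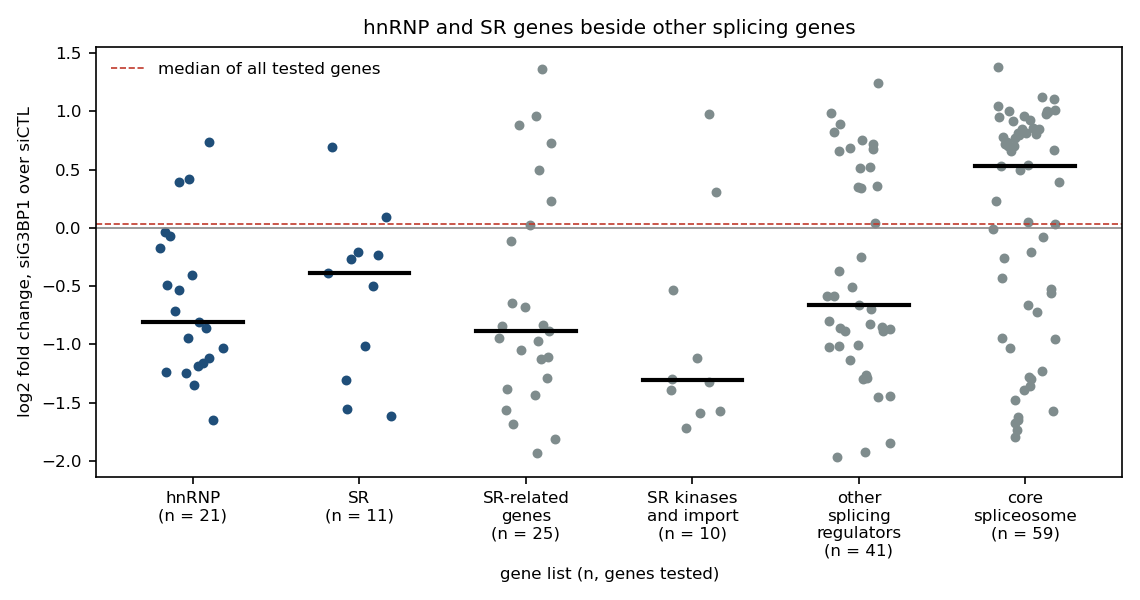
Log2 fold change (siG3BP1 over siCTL) of every tested gene of the hnRNP, SR, SR-related, kinase and import, other regulator and core spliceosome lists, with each list's median as a bar. The medians of the first 5 lists lie below 0, at -0.81, -0.39, -0.89, -1.31 and -0.67, and that of the core spliceosome lies at 0.53.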

How the data were processed

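Total RNA was sequenced in 2 siCTL and 2 siG3BP1 libraries. The authors trimmed stranded paired-end reads with Trimmomatic 0.35, aligned them to GRCh38 with STAR, took gene counts from STAR and scaled them with DESeq2 1.22.1. The submitters' notes also list TopHat2 2.0.10, with no role given. Which strand column of the counts was used is not given in the sources used here, so reads of genes on opposite strands may not be separate. The deposited values are a signal, reads divided by a library's size factor (1.25, 1.63, 0.910 and 1.221 in the order siCTL A, siCTL B, siG3BP1 A, siG3BP1 B). Multiplied by it, 100% are whole reads within 1e-06. The table also holds the authors' fold changes, p-values and means, which were not used.

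Genes with a mean of at least 10 (13422 of 58219) were tested by limma 3.58.1 (R 4.3.3, mean-variance trend) on log2(value + 0.5), two-sided, with Benjamini-Hochberg adjustment over all genes and a threshold of 0.05. edgeR 4.0.16 and DESeq2 1.42.0 on recovered reads, other pseudocounts, filters and scalings, a replicate block, each library left out and a GC correction were alternatives. For the correction, the deviations of a library from the gene means were regressed by loess (span 0.3) on exonic GC content and the curve subtracted. GC content came from Gencode 44, a later release than the authors'. Limma was tested on simulated data. All members are named, with full statistics for the 5 hnRNP and 5 SR genes of smallest p and 9 well-known genes, and of each other list the 3 genes of smallest p. Some genes that this rule or the marker lists name are not reported here. The members and lists were chosen with earlier results of these data known.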

Additional observations from a re-analysis of the deposited data

How the results depend on the processing

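The counts of called genes changed most with the GC correction and with the loss of a siCTL library. With the GC correction, on all annotated exons or on canonical transcripts (the latter chosen after seeing the data), limma called 0 lower and 0 higher genes in each of the hnRNP, SR, SR-related, kinase and import, other regulator and core spliceosome lists, with 1 gene called in the whole table. G3BP1 kept a log2 fold change of -2.33 (adjusted p = 0.0329) and -2.24 (adjusted p = 0.0373, limma). The log2 fold changes that changed sign under the correction on all exons, with or without the replicate block, were SRSF3 0.10, SRSF4 0.79, SRSF5 0.23, SRSF6 0.66, SRSF7 0.49, SRSF8 0.21, HNRNPA0 0.99, HNRNPA1 0.16, HNRNPAB -0.23, HNRNPC 0.80, HNRNPD 1.07, HNRNPH3 0.21, HNRNPK 0.18, HNRNPLL 0.071, HNRNPR 0.18, HNRNPU 0.39 and HNRNPUL1 -0.17. On canonical transcripts they were SRSF2 -0.021, SRSF3 0.16, SRSF5 0.59, SRSF6 0.76, SRSF7 0.64, SRSF8 0.25, HNRNPA0 1.01, HNRNPA1 0.14, HNRNPA2B1 0.031, HNRNPA3 0.011, HNRNPAB -0.16, HNRNPC 0.72, HNRNPD 0.85, HNRNPH3 0.20, HNRNPK 0.18, HNRNPLL 0.19, HNRNPR 0.17, HNRNPU 0.11 and HNRNPUL1 -0.23. Under quantile normalization SRSF2 was at -0.068 and SRSF8 at 0.020. With each library left out in turn, SRSF2 ranged from -0.0059 to 0.18, SRSF5 ranged from -0.47 to 0.0029, HNRNPA0 ranged from -0.17 to 0.10, HNRNPD ranged from -0.17 to 0.041 and HNRNPUL2 ranged from -0.41 to 0.067.

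The deviations of siCTL A and siG3BP1 A from their group means had a correlation of 0.30 across genes. What the letters mark is not given in the sources used here, so with 2 pairs the libraries were not taken as paired. With the replicate block limma called 8 hnRNP genes lower and 0 higher, 4 SR genes lower, 0 kinase and import genes higher, 12 other regulators lower and 1 higher, and 15 core genes lower and 7 higher. Of all genes in that fit 27.3% were lower and 17.7% higher. HNRNPK, HNRNPU, HNRNPH3 and HNRNPL did not pass with it (adjusted p = 0.0967, 0.0808, 0.0507 and 0.142, limma). With the GC correction and the replicate block together it called 5 hnRNP genes lower and 3 higher, 1 SR gene lower and 4 higher, 2 SR-related genes lower and 2 higher, 4 kinase and import genes lower and 1 higher, 5 other regulators lower and 8 higher, and 3 core genes lower and 16 higher, beside 14.5% lower and 14.9% higher of all genes. The members called in that fit were SRSF1, HNRNPF, HNRNPH1, HNRNPH2, HNRNPM and HNRNPUL2 (lower) and SRSF4, SRSF6, SRSF7, SRSF9, HNRNPA0, HNRNPC and HNRNPD (higher), with adjusted p from 9.67e-09 to 0.0411 (limma). Without any filter, with TMM scaling, with quantile normalization and in edgeR, 0 hnRNP genes and 3 other regulators were higher. Of all genes 10.8%, 22.1%, 27.8% and 23.4% were higher in these fits, in that order. In DESeq2 1 SR gene and 8 other regulators were higher, beside 23.9% of all genes.

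Leaving out each library in turn, the counts of lower and higher genes ranged from 0 to 15 and 0 to 3 for the hnRNP genes, 0 to 7 and 0 to 1 for the SR genes, 0 to 17 and 0 to 5 for the SR-related list, 0 to 8 and 0 to 1 for the kinases and import receptors, 0 to 22 and 0 to 14 for the other regulators, and 0 to 20 and 0 to 31 for the core list. No gene of these lists passed without siCTL A or without siCTL B (limma). G3BP1 ranged from -3.69 to -3.26. HNRNPL passed in 6 of its 16 alternatives, with adjusted p from 0.00228 to 0.514 (limma, edgeR and DESeq2). With 2 libraries per group and counts per gene, smaller differences and changes between isoforms could not be resolved.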
